A study of Homo sapiens with 8 samples.

Results

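The Eph receptors and ephrins examined here are 10 genes, 6 receptors (EPHA1, EPHA2, EPHA4, EPHB2, EPHB3 and EPHB4) and 4 ligands (EFNA1, EFNA4, EFNB1 and EFNB2). They were chosen by gene symbol as receptor and ligand pairs that work only between touching cells, and all 10 were found among the 19472 genes of the crowding table and the 19551 genes of the ETV4 KD table. The cells were H9 (WiCell WA09), an established human embryonic stem cell (hESC) line, grown on Matrigel in mTeSR1 or TeSR-E8 medium. In the crowding experiment, small (low-density) cultures were compared with crowded (high-density) cultures, in which the area for adhesion was limited to small drops of Matrigel. In the knockdown experiment, cells with the control genotype (Ctrl) were compared with cells in which ETV4, a transcription factor of the ETS family, was depleted (ETV4 KD). The comparisons ask how local crowding, and loss of a factor that the study links to crowding, change gene expression in hESCs. Each of the 4 groups has 2 libraries of poly-A RNA (n = 2 throughout, with SDs over those 2 values), and the labels do not say whether these came from separate cultures. The study knocked down ETV4 in H9 colonies with short hairpin RNAs delivered by lentiviral vectors. Which hairpin or clone the ETV4 KD libraries carry is not given in the sources used here.

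Eph receptors are the largest family of receptor tyrosine kinases, and their ligands, the ephrins, stay bound to the surface of the neighbouring cell. EphA receptors mainly bind the ephrin-A ligands, which are held in the membrane by a lipid anchor, and EphB receptors mainly bind the ephrin-B ligands, which span it. Binding signals in both directions, forward into the cell with the receptor and in reverse into the cell with the ligand, and acts largely on the actin cytoskeleton. In embryos the family is known for cell sorting, tissue boundaries, axon guidance and blood vessel formation.

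The libraries held between 50359703 and 62410168 reads on genes. ETV4 itself was read at 90.8 and 95.1 FPKM (fragments scaled to transcript length and to the mapped reads of the library) in the Ctrl libraries and at 45.6 and 40.9 in the ETV4 KD libraries, a log2 fold change of -1.15 ± 0.07 (standard error, SE; adjusted p = 1.60e-04 in the quasi-likelihood test of edgeR). In the crowding experiment ETV4 was read at 73.2 and 72.6 FPKM in the small and at 54.2 and 53.9 FPKM in the crowded libraries (-0.49 ± 0.06, adjusted p = 9.42e-07). The labelled cell type was checked with 10 hESC markers, which summed to between 3663 and 3863 FPKM in the crowding experiment and to between 3096 and 3370 FPKM in the knockdown experiment. After crowding, edgeR's quasi-likelihood test and DESeq2 each called 0 of these 10, where the former called 16.1% of all genes tested. In edgeR 7 of the 10 had an adjusted p below 0.05, with changes under the size limit of 0.5 given below. Among them were NANOG (-0.46, adjusted p = 3.36e-06) and SALL4 (0.38, adjusted p = 1.16e-05). The share of all genes under that adjusted p alone is not given here, so the 7 of 10 have no background to compare with. Markers of neuroectoderm, mesendoderm and trophectoderm or amnion, of which 5, 5 and 2 of 8 listed were measured in the crowding table and 6, 5 and 3 in the ETV4 KD table, summed to at most 6.99 FPKM per list in any library. Of these, SOX1 and HHEX were called higher and LHX2 and FOXA2 lower after crowding. Each had a mean FPKM of at most 0.684 in either group. SOX1 and LHX2 had means of 11.25 and 12 reads per library, and DESeq2 called 0 of the neuroectoderm and 2 of the mesendoderm markers.

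A gene was called higher or lower when its adjusted p was below 0.05 over all genes tested and its absolute log2 fold change was over 0.5. By this rule, 3 of the 10 genes were called after crowding, where 16.1% of all genes tested were called. EPHA2 and EFNB2 fell and EPHB2 rose. After ETV4 KD, 1 of the 10 was called, the ligand EFNA1, which fell, where 13.0% of all genes tested were called. With counts this small nothing is read from the lack of a member called in both experiments. The change differed between the experiments for 4 of the 10, the genes named above, where 27.5% of all genes tested differed. All 10 genes passed the filter on low counts in both tables.

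The 2 most abundant members were receptors in every group. EPHA1 led with a mean of 42.3 ± 0.69 FPKM in small, 38.4 ± 0.39 in crowded, 41.3 ± 1.50 in Ctrl and 35.9 ± 1.16 in ETV4 KD cultures. EPHB4, best known as the venous receptor for ephrin-B2, followed with 38.9 ± 0.77, 34.5 ± 3.50, 27.6 ± 1.67 and 28.4 ± 1.89 FPKM in the same order. Together they made up between 74.0% and 78.4% of the summed FPKM of all measured Eph receptors in each library. EPHA2 held rank 3 in small, Ctrl and ETV4 KD cultures and EFNA4, the most abundant ligand, held rank 4. In crowded cultures this order was turned, with EFNA4 at 7.97 ± 0.09 FPKM and EPHA2 at 6.05 ± 0.23 FPKM. EFNB2 held rank 5 in every group. EFNB1, EPHB2, EPHA4 and EFNA1 lay between 0.599 and 2.18 FPKM, and EPHB3 was last in every group, at 0.123 to 0.268 FPKM from 32 to 66 reads per library. Within a group, the libraries of neighbours in this order overlapped for a single pair, EFNB1 and EPHB2 in ETV4 KD cultures, and the other neighbours were apart in both libraries.

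**Figure D1:**
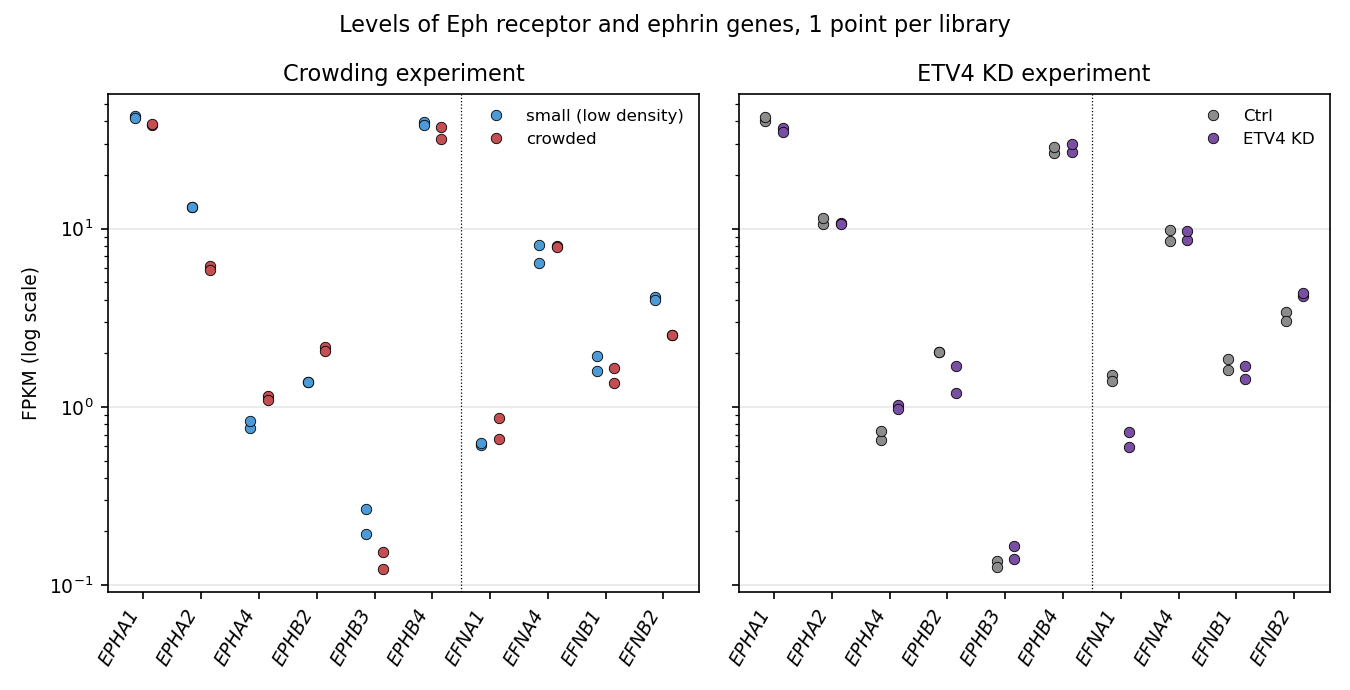
Level of each of the 10 genes in FPKM on a log axis, with 1 point per library, receptors to the left of the dotted line and ephrins to the right. EPHA1 and EPHB4 stand above 25 FPKM in all 8 libraries, and EPHB3 stands below 0.3 FPKM in all 8.

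The 4 genes called in either experiment are shown here with the 250 bases before their RefSeq start, because ETV4 is an ETS factor and the genes moved in different directions. The windows come from the RefSeq promoter table of GRCh38.p14, in which all 10 genes have an entry. EPHA4 and EPHB2 have 2 entries each, of which the first was used. All windows were found once each, letter for letter, in GRCh37, the build of the deposited data. On GRCh37 they lie at chr1:16482565-16482814 on the minus strand for EPHA2, at chr13:107188011-107188260 on the minus strand for EFNB2, at chr1:23037081-23037330 on the plus strand for EPHB2 and at chr1:155100102-155100351 on the plus strand for EFNA1. Each is printed 5′ to 3′ on the strand of its gene, and capitals mark GGAA on either strand (GGAA or TTCC), the core that ETS factors share.
EPHA2: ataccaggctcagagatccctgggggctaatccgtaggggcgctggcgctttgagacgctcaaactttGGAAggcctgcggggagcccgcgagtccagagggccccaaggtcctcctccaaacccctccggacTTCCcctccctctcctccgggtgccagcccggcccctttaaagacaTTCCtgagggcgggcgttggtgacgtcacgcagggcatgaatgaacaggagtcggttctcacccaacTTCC
EFNB2: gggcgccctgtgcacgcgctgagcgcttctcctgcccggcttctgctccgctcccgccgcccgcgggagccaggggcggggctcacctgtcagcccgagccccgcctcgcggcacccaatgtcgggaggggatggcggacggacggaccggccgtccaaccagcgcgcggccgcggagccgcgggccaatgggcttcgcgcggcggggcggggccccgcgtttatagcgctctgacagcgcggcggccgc
EPHB2: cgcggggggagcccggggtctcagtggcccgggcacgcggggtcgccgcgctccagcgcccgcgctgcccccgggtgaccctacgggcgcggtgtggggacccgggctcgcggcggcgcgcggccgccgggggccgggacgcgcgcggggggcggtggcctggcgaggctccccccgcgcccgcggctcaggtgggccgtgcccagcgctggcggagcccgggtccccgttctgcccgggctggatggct
EFNA1: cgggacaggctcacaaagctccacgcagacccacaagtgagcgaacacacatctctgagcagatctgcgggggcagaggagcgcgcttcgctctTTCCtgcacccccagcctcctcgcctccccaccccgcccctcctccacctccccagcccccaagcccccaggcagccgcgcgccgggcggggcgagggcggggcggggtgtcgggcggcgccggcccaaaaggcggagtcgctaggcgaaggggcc

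The windows of EPHA2 and EFNA1 hold 4 and 1 GGAA matches, and those of EFNB2 and EPHB2, with a GC content of 78.4% and 84.8%, hold none. The search for GGAA was added after the values were seen, and 92.7% of the 35116 windows of this length in the RefSeq table hold at least 1 match, with a median of 3. Of the longer motifs that contain this core, AGGAAG was found once each in the windows of EFNA4 and EFNB1 (28.7% of all windows hold it), and CCGGAAG was found in none of the 10 windows (8.5% of all windows hold it). These are matches of letters on both strands, and no binding was measured in these windows.

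Among the receptors, EPHA2, which binds ephrin-A ligands and is widely expressed in epithelial cells, was the member with the largest fall after crowding. It was read at 13.2 FPKM in each of the small libraries and at 6.21 and 5.88 FPKM in the crowded libraries. The groups were far apart, the lower small library reading more than the higher crowded library. The log2 fold change was -1.18 ± 0.07 (adjusted p = 4.12e-11), which makes the level 55.9% lower in crowded cells. In bulk RNA, fewer cells that express a gene and less RNA of it per cell cannot be told apart.

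EPHB2, a receptor of ephrin-B ligands known from axon guidance and the intestinal crypt, rose. Both small libraries stood at 1.37 FPKM, and the crowded libraries stood at 2.18 and 2.06 FPKM, above both. The log2 fold change was 0.57 ± 0.08 (adjusted p = 1.15e-05). This lies close to the limit of 0.5, and with limma on log2(FPKM + 0.5) the change was 0.48 and was not called.

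The other receptors were not called. EPHA4, which binds ephrins of both classes, was read at 0.758 and 0.836 FPKM in small and at 1.15 and 1.09 FPKM in crowded libraries, without overlap (0.43 ± 0.14, adjusted p = 0.0166), a change under the size limit. The same holds for the abundant EPHA1 (-0.20 ± 0.06, adjusted p = 0.00854) and EPHB4 (-0.23 ± 0.07, adjusted p = 0.00958). EPHB3, a partner of EPHB2 in the intestinal crypt, showed the opposite case. Its libraries stood at 0.268 and 0.194 FPKM in small and at 0.123 and 0.153 FPKM in crowded cultures, a change of -0.78 ± 0.31 that missed the threshold (adjusted p = 0.0543) on 33 to 66 reads. It passed when genes needed at least 10 counts in every library (-0.77, adjusted p = 0.0484). Without small replicate 2, EPHB3 (-1.01, adjusted p = 0.0490) and EPHA4 (0.50, adjusted p = 0.0462) were also called, and the count was 5. In this and every fit that leaves out a library, the lone library left in its group is assumed to vary like those of the other groups.

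Of the ligands, EFNB2, the transmembrane ephrin-B2 that marks arterial endothelium in vessels and binds EPHB4, fell after crowding. It was read at 4.12 and 3.96 FPKM in small libraries. In crowded libraries it was read at 2.53 and 2.53 FPKM, below both. The log2 fold change was -0.73 ± 0.08 (adjusted p = 9.76e-07), a level 39.7% lower. The endothelial markers in the crowding table, 4 of 8 listed, moved the other way in sum, from 28.5 to 29.3 FPKM in small to 33.3 to 37.7 FPKM in crowded libraries. KDR held most of that sum, with 24.7 and 23.7 FPKM in small and 31.2 and 35.7 FPKM in crowded libraries (0.41, not called). TEK was called lower, from 3.78 and 3.97 FPKM in small to 1.30 and 1.09 FPKM in crowded libraries (-1.75, adjusted p = 1.20e-10). TIE1 stood lower (-0.48) and CLDN5 higher (0.76), neither of them called. PECAM1, CDH5, EMCN and ESAM were not analysed here for crowding, and the part of these markers in the result for EFNB2 was not tested.

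The remaining ligands were not called after crowding. EFNA1, the lipid-anchored ligand often paired with EPHA2, was read at 0.608 and 0.630 FPKM in small and at 0.661 and 0.869 FPKM in crowded libraries (0.26 ± 0.27, adjusted p = 0.478). With 54 to 97 reads per library the counting error alone is 10.2% to 13.6% of its value. EFNA4, which like EFNA1 is lipid-anchored, was read at 6.38 and 8.09 FPKM in small and at 8.04 and 7.91 FPKM in crowded libraries, so the groups overlapped (0.08 ± 0.12, adjusted p = 0.647). EFNB1, the X-linked ephrin-B1, was read at 1.60 and 1.93 FPKM in small and at 1.66 and 1.36 FPKM in crowded libraries, which also overlapped (-0.29 ± 0.15, adjusted p = 0.152).

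Across all 17672 genes tested, 16.1% were called after crowding, 10.7% higher and 5.47% lower, against 3 of the 10 members, 1 higher and 2 lower. The median log2 fold change of the members was -0.21, with 6 of 10 below 0, and that of all genes tested was 0.00315. The same 3 members were called by the DESeq2 Wald test.

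**Figure D2:**
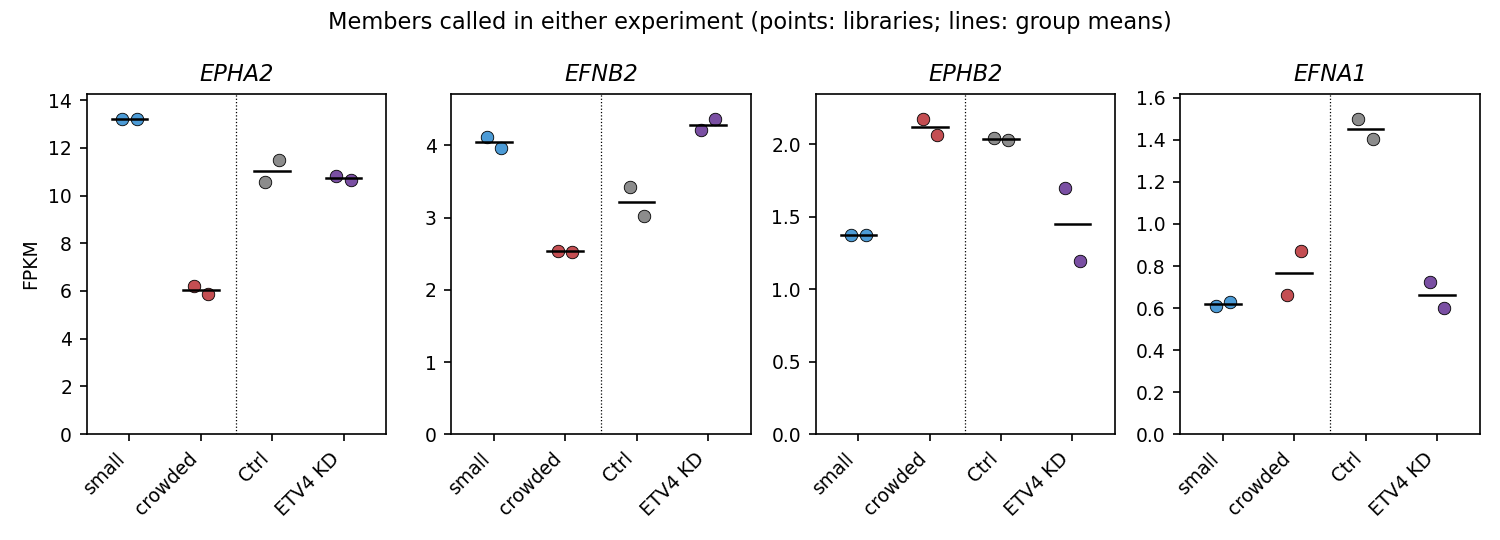
FPKM of EPHA2, EFNB2, EPHB2 and EFNA1 in the 8 libraries, on linear axes that start at 0, with 1 point per library and a line at each group mean. EPHA2 and EFNB2 are lower and EPHB2 is higher in crowded than in small libraries, and EFNA1 is lower in ETV4 KD than in Ctrl libraries.

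After ETV4 KD, EFNA1 was the member that fell. The Ctrl libraries read 1.50 and 1.40 FPKM. The ETV4 KD libraries read 0.725 and 0.599 FPKM, below each Ctrl library. The log2 fold change was -1.11 ± 0.24 (adjusted p = 0.0144), a level 53.8% lower, on 146 and 125 reads against 69 and 55. Without Ctrl replicate 1 the change was -1.04 and no longer passed (adjusted p = 0.0666), and without ETV4 KD replicate 1 the count of members called was 3, with EPHB2 (-0.73, adjusted p = 7.02e-04) and EPHA4 (0.51, adjusted p = 0.0452) added. EPHA2, which fell after crowding, was read at 10.6 and 11.5 FPKM in Ctrl and at 10.8 and 10.6 FPKM in ETV4 KD libraries (-0.03 ± 0.08, adjusted p = 0.809), with overlapping groups.

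EFNB2 stood at 3.43 and 3.02 FPKM in Ctrl and, above both, at 4.21 and 4.37 FPKM in ETV4 KD libraries. Its log2 fold change of 0.42 ± 0.12 had an adjusted p of 0.0354 but was under the size limit. EPHB2 was read at 2.04 and 2.03 FPKM in Ctrl and at 1.70 and 1.19 FPKM in ETV4 KD libraries. These were lower in both, with the wider spread after knockdown, and the change of -0.49 ± 0.15 (adjusted p = 0.0455) was also under the limit. EPHA4 was read at 0.656 and 0.735 FPKM in Ctrl and at 1.03 and 0.978 FPKM in ETV4 KD libraries, without overlap, and narrowly missed the threshold (0.50 ± 0.15, adjusted p = 0.0506).

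The abundant receptors were not called. EPHA1 was read at 40.3 and 42.4 FPKM in Ctrl and at 36.7 and 35.1 FPKM in ETV4 KD libraries (-0.20 ± 0.07, adjusted p = 0.0790), and EPHB4 at 26.4 and 28.8 against 27.0 and 29.7 FPKM (0.05 ± 0.09, adjusted p = 0.746). EPHA1 was the lower in both ETV4 KD libraries, while EPHB4 overlapped. EPHB3 was read at 0.136 and 0.127 FPKM in Ctrl and at 0.140 and 0.167 FPKM in ETV4 KD libraries (0.23 ± 0.34, adjusted p = 0.655), EFNA4 at 8.50 and 9.88 against 8.68 and 9.69 FPKM (-0.01 ± 0.14, adjusted p = 0.980), and EFNB1 at 1.61 and 1.86 against 1.44 and 1.70 FPKM (-0.14 ± 0.17, adjusted p = 0.596). The groups of EFNA4 and of EFNB1 overlapped.

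Across all 17879 genes tested, 13.0% were called after ETV4 KD, 5.88% higher and 7.10% lower, so that 1 called member of 10 is close to the share over all genes. The median log2 fold change of the members was -0.02, with 6 of 10 below 0, and that of all genes tested was -0.00125. The DESeq2 Wald test called the same gene. Of the 10 hESC markers, LIN28A was called higher, and DNMT3B and TDGF1 were called lower, after the knockdown. NANOG (-0.44, adjusted p = 0.0165) and L1TD1 (0.41, adjusted p = 0.00616) had an adjusted p below 0.05 at changes under the size limit. The endothelial markers, 6 of 8 listed, summed to 35.7 and 36.4 FPKM in Ctrl libraries. In ETV4 KD libraries they summed to between 22.0 and 29.1 FPKM, with KDR and CDH5 called lower. KDR held most of that sum, with 30.3 and 28.9 FPKM in Ctrl and 20.9 and 14.4 FPKM in ETV4 KD libraries. CLDN5 (-0.51) also stood lower, and TEK (0.34), TIE1 (0.41) and ESAM (0.56) stood higher, none of them called. CDH5 was at or below 0.0997 FPKM in every library, and the part of these markers in the result for EFNA1 was not tested.

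**Figure D3:**
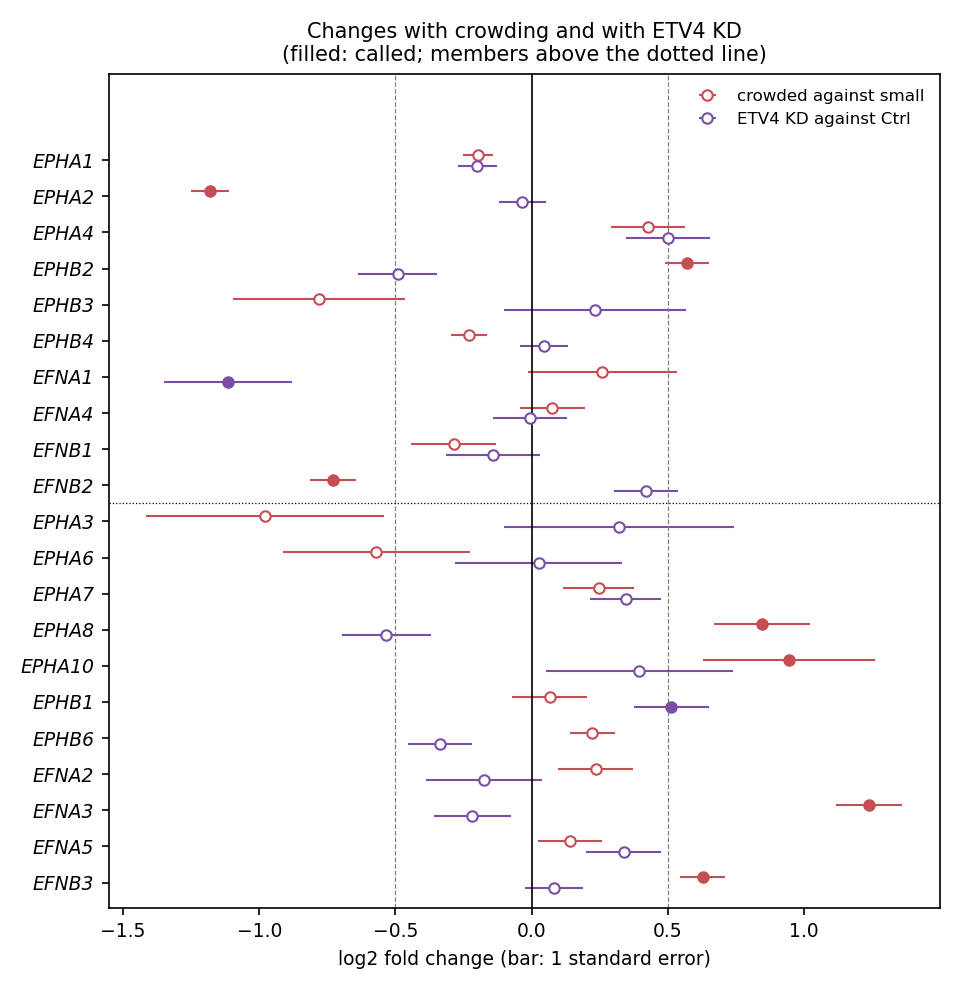
Log2 fold changes of the 10 genes (above the dotted line) and of 11 other Eph and ephrin genes, with bars of 1 SE; filled points were called. Among the 10 genes, EPHA2, EFNB2 and EPHB2 are filled after crowding and EFNA1 after ETV4 KD.

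The changes in the experiments were compared in 1 fit over all 8 libraries as (crowded minus small) minus (ETV4 KD minus Ctrl). Of the 10 members, 4 differed between the experiments, against 27.5% of the 17790 genes tested in this way. EPHA2 changed further downwards after crowding than after knockdown, with a difference of -1.15 ± 0.10 (adjusted p = 9.59e-06). EFNB2, which was lower after crowding and stood higher after knockdown, differed by -1.16 ± 0.14 (adjusted p = 8.29e-05). The opposite signs were reached by EPHB2 (1.05 ± 0.17, adjusted p = 5.48e-04) and EFNA1 (1.37 ± 0.34, adjusted p = 0.00685). For EPHA1 the difference was -0.00360 ± 0.08 (adjusted p = 0.979) and for EPHA4 -0.08 ± 0.19 (adjusted p = 0.775), although EPHA4 stood higher, and EPHA1 lower, in both libraries of the treated group in each experiment.

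The 2 control groups did not read the same. EFNA1 stood at 0.619 ± 0.02 FPKM in small cultures and at 1.45 ± 0.07 FPKM in Ctrl cultures, and its level after knockdown, 0.662 ± 0.09 FPKM, was close to that in small cultures. EPHB2 stood at 1.37 FPKM in small and 2.04 FPKM in Ctrl cultures, and its level after knockdown was 1.45 ± 0.36 FPKM. The tables were deposited separately, and genotype, culture and sequencing of these groups cannot be told apart, so these values are given side by side with no test.

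Of the other 12 genes of the family, 11 were tested after crowding and 4 were called, all higher, where 10.7% of all genes tested were called higher. EPHA8 (0.85 ± 0.18, adjusted p = 6.58e-04), EPHA10 (0.95 ± 0.32, adjusted p = 0.0218), EFNA3 (1.24 ± 0.12, adjusted p = 1.04e-07) and EFNB3 (0.63 ± 0.08, adjusted p = 5.31e-06) rose, and EPHA10, with 33 to 112 reads per library, was not called without small replicate 2 (0.49, adjusted p = 0.322) or by DESeq2 (0.94, adjusted p = 0.0682). EFNA3, a lipid-anchored ephrin, moved most, from 2.41 and 2.62 FPKM in small to 6.04 and 6.35 FPKM in crowded libraries. EFNB3, a transmembrane ephrin that marks the midline of the nervous system, went from 4.20 and 4.31 FPKM to 7.05 and 6.64 FPKM. The share of EFNA3 in the summed FPKM of all ephrins was 10.1% and 10.3% in small and 19.2% and 21.0% in crowded libraries.

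The rest of the family was not called after crowding. EPHA3 (-0.98, adjusted p = 0.0814) and EPHA6 (-0.57, adjusted p = 0.203) have at most 52 reads per library, EPHA7 changed by 0.25 (adjusted p = 0.142) and EPHB1 by 0.07 (adjusted p = 0.741). The kinase-inactive receptor EPHB6 reached 0.22 (adjusted p = 0.0380), under the size limit. The ligands EFNA2 (0.24, adjusted p = 0.189) and EFNA5 (0.14, adjusted p = 0.369) complete the list, and EPHA5, with 7 to 10 reads per library, was not tested.

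After ETV4 KD, EPHB1, a receptor with ephrin-B ligands, was the gene called among the 11 tested (13.0% of all genes tested were called), from 1.34 and 1.25 FPKM in Ctrl to 1.84 and 1.85 FPKM in ETV4 KD libraries (0.51 ± 0.14, adjusted p = 0.0331). It lost the call without Ctrl replicate 1 (0.57, adjusted p = 0.142), Ctrl replicate 2 (0.47, adjusted p = 0.225) or ETV4 KD replicate 2 (0.48, adjusted p = 0.0576). EPHA8 narrowly missed the threshold, from 2.14 ± 0.05 FPKM in Ctrl to 1.45 ± 0.03 FPKM in ETV4 KD cultures (-0.53 ± 0.16, adjusted p = 0.0505). EPHA6 cannot be read from FPKM here, since its FPKM per read varied 7.81-fold between libraries. The differences between experiments were called for 4 of these 11, where 27.5% of all genes tested differed, namely EPHA8 (1.37, adjusted p = 7.08e-04), EPHB6 (0.55, adjusted p = 0.00833), EFNA3 (1.45, adjusted p = 8.60e-05) and EFNB3 (0.54, adjusted p = 0.00542). EPHA5 was not analysed here for the knockdown.

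Several family genes are neighbours on chromosome 1. EFNA4 (GRCh37 positions 155036213 to 155042029), EFNA3 (155051313 to 155060014) and EFNA1 (155100352 to 155107375) lie in a row on the plus strand, with gaps of 9.3 and 40.3 kb. EFNA4 and EFNA3 share the annotated readthrough gene EFNA4-EFNA3, so their counts are less certain. After crowding the middle gene, EFNA3, rose by 1.24, and EFNA4 and EFNA1 were at 0.08 and 0.26. After ETV4 KD the last, EFNA1, fell by 1.11, and EFNA4 and EFNA3 were at -0.01 and -0.22. Differences between neighbours were not tested. EPHA8 (22889982 to 22930088) and EPHB2 (23037332 to 23247993) are also on the plus strand, 107.2 kb apart, with C1QA, C1QC and C1QB between them. Both were higher after crowding, at 0.85 and 0.57, and both stood lower after ETV4 KD, at -0.53 and -0.49, without being called.

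**Figure D4:**
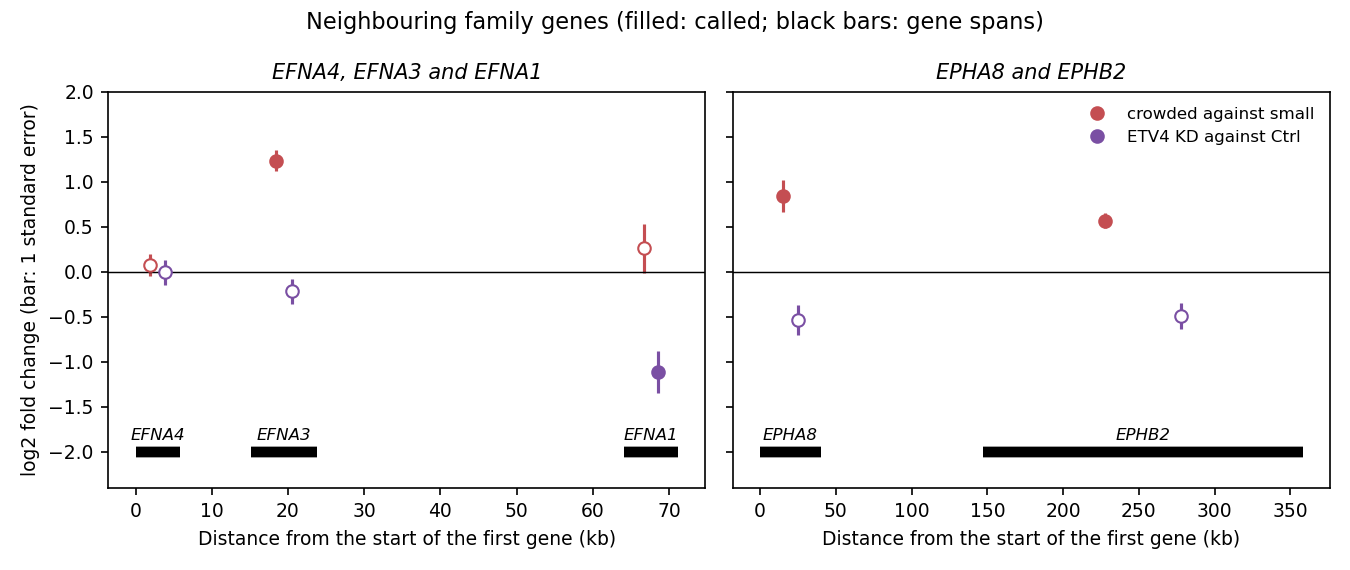
Log2 fold change ± 1 SE of neighbouring family genes against distance in kb from the start of the first gene; black bars are gene spans and filled points were called. EFNA3 is the filled gene after crowding and EFNA1 after ETV4 KD in the left panel, and EPHA8 and EPHB2 are filled after crowding in the right panel.

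Gene models that overlap the members could add reads, as it is not stated whether counting used strand. EPHA1 (chromosome 7, 143087382 to 143105949, minus strand) overlaps ZYX and EPHA1-AS1 on the other strand, and EPHA2 overlaps EPHA2-AS1. EPHB4 overlaps SLC12A9 on the other strand and RN7SL750P on its own. EPHA4 overlaps 3 models, of which the miRNA AC079834.2 is on its own strand. EFNB2 overlaps 2 models of long non-coding RNAs, 1 of them on its own strand, and EPHB2 overlaps 4 models of miRNAs and a long non-coding RNA, 1 of them on its own strand. EPHA1-AS1, named after its values were seen, was read at 0.537 and 0.533 FPKM in Ctrl and at 0.286 and 0.218 FPKM in ETV4 KD libraries, a log2 fold change of -1.07 ± 0.23 (adjusted p = 0.0146). In crowding it stood at 0.37 ± 0.22 (adjusted p = 0.196).

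The genes through which Eph and ephrin signals act were listed with earlier results known. Of 30 genes of forward signalling, 1 was called after crowding and 4 after ETV4 KD, where 16.1% and 13.0% of all genes tested were called. In each experiment 11 of the 30 had an adjusted p below 0.05 whatever the size of the change. The 16.1% and 13.0% also require the size limit, so the 11 cannot be set against them. Called higher after crowding was ARHGEF15, a guanine nucleotide exchange factor related to the ephexins (0.89 ± 0.28, adjusted p = 0.0153). After ETV4 KD, ARHGEF15 was lower (-1.86 ± 0.22, adjusted p = 0.00165), from 0.893 and 0.921 to 0.278 and 0.216 FPKM, as was PIK3R1, a regulatory subunit of phosphoinositide 3-kinase (-0.63 ± 0.14, adjusted p = 0.0153). CHN1, a Rac-inactivating effector of EPHA4 (0.51 ± 0.09, adjusted p = 0.00754), and the adaptor GRB7 (0.68 ± 0.09, adjusted p = 0.00270) were higher. The median of the list was -0.05 after crowding and -0.14 after ETV4 KD. The change in ARHGEF15 differed between the experiments (2.74 ± 0.33, adjusted p = 8.60e-05). ARHGEF15 was not called after crowding by DESeq2 (adjusted p = 0.0602), without small replicate 2 (0.68, adjusted p = 0.163) or without crowded replicate 2 (0.79, adjusted p = 0.0640). Without Ctrl replicate 1, CHN1 (0.44, adjusted p = 0.0636) and PIK3R1 (-0.50, adjusted p = 0.128) were not called after ETV4 KD, and without ETV4 KD replicate 2 CHN1 was under the size limit (0.48).

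In reverse signalling, 1 of 10 listed genes was called in each experiment, where 16.1% and 13.0% of all genes tested were called. This was GRIP2, a scaffold with PDZ domains of the kind that bind ephrin-B tails. It was read at 0.576 and 0.564 FPKM in small and at 1.63 and 1.91 FPKM in crowded libraries, a rise of 1.58 ± 0.12 (adjusted p = 3.13e-09). In the knockdown it was read at 1.24 and 1.23 FPKM in Ctrl and at 0.926 and 0.621 FPKM in ETV4 KD libraries, a log2 fold change of -0.68 ± 0.18 (adjusted p = 0.0327), a call that was lost without Ctrl replicate 1 (-0.66, adjusted p = 0.0652) or ETV4 KD replicate 2 (-0.44, adjusted p = 0.0612). The difference between the experiments was 2.24 ± 0.22 (adjusted p = 2.09e-05). The median of the list was -0.03 and 0.07, and 5 of the 10 after crowding and 1 after ETV4 KD had an adjusted p below 0.05. Besides GRIP2, those after crowding were PICK1 (-0.30), RGS3 (-0.38), PTPN13 (-0.24) and GIT1 (-0.32), lower but under the size limit. Among 14 genes of shedding, dephosphorylation and turnover, such as ADAM10 and CBL, edgeR's quasi-likelihood test and DESeq2 each called 0 in either experiment, where 16.1% and 13.0% of all genes tested were called by the former. Of these 14, 3 after crowding and 5 after ETV4 KD had an adjusted p below 0.05 at a change under the size limit. An unadjusted p below 0.05 was reached by 5 and 7, and the medians of the list were -0.03 and -0.14. For the counts by p alone in both lists, the share over all genes is not given, and nothing is read from them.

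Genes outside the family were ranked by how closely their log2 CPM (counts scaled to library size), centred within each experiment, followed a member over the 8 libraries. For EPHA2, of 12988 genes compared, CALD1 (Pearson's r = 0.997), PABPC4 (0.996) and SEPHS1 (0.996) came closest. For EFNA1 they were EPHX2 (0.998), UST (0.997) and RHBDD1 (0.993). These libraries share their groups and depth, and the values are a description only.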

How the data were processed

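Poly-A RNA libraries were made with a stranded kit, and per the labels the reads were trimmed with Trimmomatic, mapped to GRCh37 with HISAT2 2.1.0 and assembled with StringTie 2.1.3b. The authors deposited 1 table per experiment, with raw read counts per gene, not normalized, and FPKM values, normalized by the authors for transcript length and mapped reads. A further 16 per-sample columns, and the authors' own fold changes and p-values, were not used. Columns named Control and Test were assigned to Ctrl and ETV4 KD through the labels.

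Counts were tested with edgeR 4.0.16 in R 4.3.3 (filterByExpr, TMM, robust quasi-likelihood test, Benjamini-Hochberg adjustment over all genes tested). Each SE was derived from the fold change and its F statistic. With 2 libraries against 2, an exact permutation test of a single gene cannot go below p = 0.333 (two-sided), so the p-values rest on dispersion shared across genes. Alternatives were DESeq2 1.42.0, limma 3.58.1 on log2 FPKM, other filters and thresholds, the replicate number as a block, and each library left out. The same alternatives were added, after the data were seen, for called genes outside the members.

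The members and lists were chosen with earlier results of these data known. All members, all other Eph and ephrin genes, pathway genes called in either experiment, ETV4, and the 3 genes most like the member with the largest change in each experiment were named. Gene positions are from an annotation on GRCh37. Protein sequences were not used here.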

Additional observations from a re-analysis of the deposited data

How the results depend on the processing

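Crowding called 3 members, 2 (EPHA2 and EFNB2) with glmTreat against 0.5 and with limma on log2(FPKM + 0.5) under both filters, 4 (EPHB3 added) with at least 10 counts in every library, 1 (EPHA2) with an absolute log2 fold change over 1, 3 to 5 when each library was left out, and 3 in the other settings. ETV4 KD called 1 member (EFNA1) in most settings, 3 with the replicate number as a block (EPHA4 and EPHB2 added), 0 with glmTreat against 0.5, and 0 to 3 when each library was left out. The count of 4 members that differed between the experiments moved little or not at all in the alternatives. Over all genes, crowding called 2851 and ETV4 KD 2321, against 1104 and 380 with glmTreat, 1135 and 761 over 1, and 1717 and 1703 with limma on log2(FPKM + 0.5) where the mean FPKM reached 0.5.

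The replicate numbers pair no samples by the labels, and the correlation of replicate differences was -0.0414 for crowding and 0.0856 for ETV4 KD. Under the replicate block EPHA4 (0.50, adjusted p = 0.0144) and EPHB2 (-0.51, adjusted p = 5.02e-04) were called after ETV4 KD, and the other calls of members did not change.

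Directions turned only for members near 0. Leaving out each library moved EFNA4 from -0.0779 to 0.26 after crowding, and after ETV4 KD moved EFNA4 from -0.13 to 0.11, EFNB1 from -0.30 to 0.0034, EPHA2 from -0.0818 to 0.024 and EPHB4 from -0.0542 to 0.14. With limma on log2 FPKM, EFNA4 after ETV4 KD was 4e-04 with a pseudocount of 0.5, for expressed genes and for all genes, and 5e-04 with 0.1. The cause was not tested. Of the values of single genes under all alternatives, 350 kept direction and call, 31 lost the call, 7 gained it and 10 turned. Depth limits EPHB3 and EFNA1, with 32 to 146 reads per library, and n = 2 limits every comparison.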
